A study of Sus scrofa with 6 samples.

Results

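ANKRD1, ANKRD2 and CSRP3 encode striated muscle proteins known to respond to stretch and mechanical load. They were followed on 6 one-colour arrays of pig skeletal muscle, 3 of longissimus dorsi muscle (LDM), a glycolytic muscle of the back, and 3 of psoas major muscle (PMM), an oxidative muscle of the loin. The muscles came from 3 unrelated female Landrace pigs without experimental treatment. Both muscles were sampled at slaughter, at 210 days of age, after feed withdrawal. The labels number the arrays of each muscle as replicates 1 to 3, but no source used here says that a number stands for a pig. The p-values below therefore measure the spread between these arrays. Where the replicate number is used as a block, they measure the spread of the differences within the numbers. The labels name muscle as the tissue, although their text on RNA extraction speaks of fat tissue. The 3 genes are 3 of the 3550 genes that could be named on the array, and of the 2910 of these that were detected well enough to be tested. Each had 1 probe in a single spot. The group was chosen by the measured signal of ANKRD1, which stood far lower in PMM, so the contrast of ANKRD1 is described here and not tested. ANKRD2 and CSRP3 were listed beside it for their function, but with earlier results of these data known. Their p-values are therefore not those of genes chosen without sight of the data.

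ANKRD1, also named CARP, and ANKRD2 are muscle ankyrin repeat proteins. Both bind titin in the sarcomere and can also be found in the nucleus, where they act on transcription, and their mRNAs are known to rise when a muscle is stretched, overloaded or injured. ANKRD1 is best known from the heart, whereas ANKRD2 is typical of slow skeletal fibres. CSRP3, the muscle LIM protein, sits at the Z-disc, the plane that anchors the thin filaments, and takes part in sensing mechanical load.

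All 3 probes were 60 bases long. Their last 30 bases, in the sense direction from 5′ to 3′, are shown because every value of the 3 genes rests on these sequences alone. Capitals mark the letters AATAAA, the common form of the polyadenylation signal.
ANKRD1: aaccatttgatgcctgggcctggtatttct
ANKRD2: ccgcAATAAAaaagtctttttcttcaaaaa
CSRP3: gctaaggcttggctactgaaagagcgccgc
AATAAA was found in the ANKRD2 probe and not in the other two, and 12.1% of the 43603 probes of the array held it in the sense direction. Its reverse complement TTTATT, in 4.63% of probes, was in none of the 3. The probes of ANKRD1, ANKRD2 and CSRP3 had GC contents of 45.0%, 40.0% and 41.7%, and 0 other probes of the array shared a stretch of 20 bases with any of them. The ANKRD1 probe carries the older name CARP in the files and was assigned to ANKRD1 through its RefSeq accession. The probes of ANKRD2 and CSRP3 were named by their descriptions only, which refer to assembled transcripts with similarity to these proteins. For CSRP3 this similarity covered only a part of the human protein, and the identity of its probe with the pig CSRP3 mRNA was not checked here.

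Between 58.5% and 72.4% of the spots of an array were well above the background, 0 spots were saturated, and 6 to 161 spots per array were left out as outliers, the most of them on PMM replicate 3. The probes of ANKRD1, ANKRD2 and CSRP3 exceeded the background clearly on each of the 6 arrays, and the error that the scanner software gave for their spots was at most 10.9% of the intensity. A replicate number coincided with a scan day, so the difference within a number is also a difference within a scan day. LDM and PMM shared a slide for replicates 2 and 3, but not for replicate 1. Skeletal fibre genes with a probe exceeded it as clearly on each array, in 11 of 11 cases for fast and 8 of 8 for slow fibres.

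ANKRD1 was lower in PMM than in LDM in each of the 3 same-numbered pairs, by 8.03-fold on average. The deposited intensity, in arbitrary scanner units, was 126478 on LDM replicate 1, 61984 on LDM replicate 2 and 53111 on LDM replicate 3. It was 17232 on PMM replicate 1, 16173 on PMM replicate 2 and 2324 on PMM replicate 3. The lowest LDM array was thus above the highest PMM array, and PMM replicate 3 stood well below the other two PMM arrays. The normalized signal used from here on is log2 of the intensity relative to the 75th percentile of the array. It was 7.54, 6.14 and 6.34 in LDM and 4.86, 4.35 and 1.78 in PMM, in the order of the replicate numbers. The LDM mean was 6.67 ± 0.76 (SD, n = 3), and the PMM mean 3.67 ± 1.65 (SD, n = 3).

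The gap between the lowest LDM array and the highest PMM array for ANKRD1 was 1.28 on the log2 scale. Among all probes with a value on every array, the muscles did not overlap, in either direction, in 5.94%, and nothing about the choice of ANKRD1 can be read from its own gap. Within the pairs, ANKRD1 was lower in PMM by 6.41-fold for replicate 1, 3.45-fold for replicate 2 and 23.4-fold for replicate 3. The size of the difference therefore varied strongly between the pairs, while its direction did not. The PMM arrays themselves spanned 8.44-fold, compared with 2.65-fold among the LDM arrays. With PMM replicate 3 left out, the mean difference of ANKRD1 was 4.18-fold, and with PMM replicate 1 left out, 12.2-fold. The scanner read each array at a high and a low gain, and the low-gain scan supplied the ANKRD1 intensity on all 3 LDM arrays and on 0 of the 3 PMM arrays. The part of this in the difference was not tested. In tissue RNA, fewer cells of a type and less RNA per cell cannot be told apart, which holds for all values given here.

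**Figure D1:**
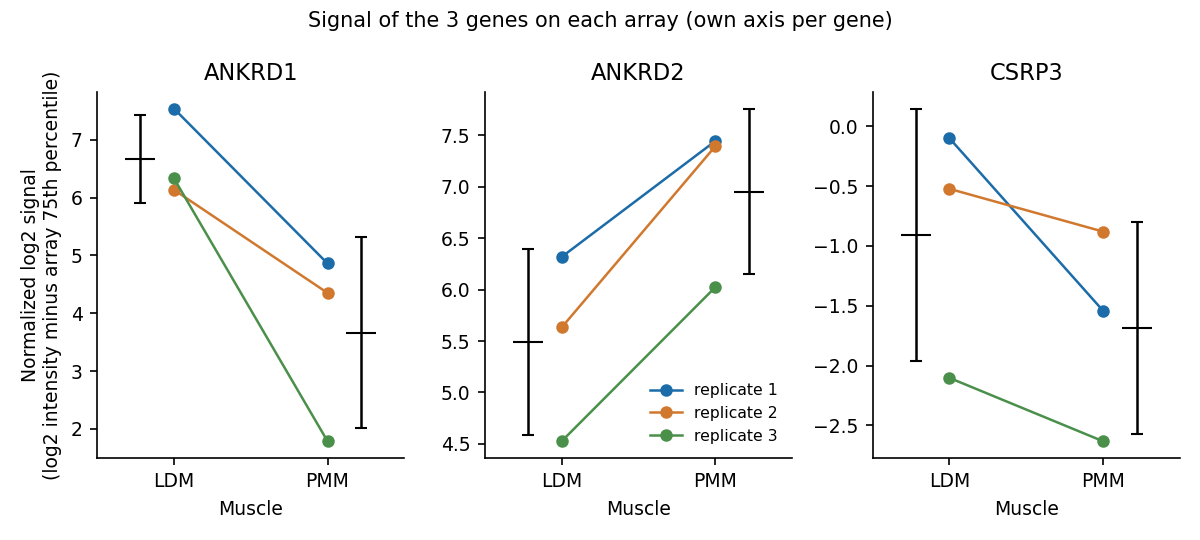
Normalized log2 signal (log2 intensity relative to the array's 75th percentile) of ANKRD1, ANKRD2 and CSRP3 on each array, with one axis per gene, since levels of different probes cannot be compared. Points are arrays, coloured lines join arrays of the same replicate number, and black bars give the mean and SD of the 3 arrays of a muscle. All 3 ANKRD1 lines fall from LDM to PMM and all 3 ANKRD2 lines rise, and the arrays of replicate 3 are the lowest of their muscle for ANKRD2 and CSRP3.

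ANKRD2, the relative of ANKRD1, differed in the opposite direction. Its intensity was 54132 units on LDM replicate 1, 43700 on LDM replicate 2 and 15159 on LDM replicate 3. It was 103201 units on PMM replicate 1, 133156 on PMM replicate 2 and 43850 on PMM replicate 3. Every PMM array was brighter than the LDM array of its number, but the muscles overlapped, because PMM replicate 3 was below LDM replicate 1. The normalized log2 signals were 6.32, 5.63 and 4.53 in LDM and 7.44, 7.39 and 6.02 in PMM. The means were 5.49 ± 0.90 (SD, n = 3) and 6.95 ± 0.81 (SD, n = 3), a log2 difference of 1.46 with a standard error of 0.55, or 2.75-fold. The 95% confidence interval ran from 0.20 to 2.73.

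The difference of ANKRD2 did not pass the limma test over all probes (adjusted p = 0.99998), in which 0% of the 25835 probes passed, or over genes (adjusted p = 0.99984), in which 0% of the 2910 genes passed. Without adjustment, 689 probes and 111 genes had a p under 0.05. Both counts are lower than this threshold passes on average when nothing differs. Within the pairs, the log2 difference of ANKRD2 was 1.13 for replicate 1, 1.76 for replicate 2 and 1.496 for replicate 3. These 3 values lay much closer together than the arrays of a muscle did. With the replicate number as a block in limma, the adjusted p of ANKRD2 was 0.157 over probes, of which 0.0619% passed, and 0.00142 over genes, of which 3.99% passed as higher in PMM and 2.23% as lower in PMM. The call of ANKRD2 over genes thus depended on the pairing. Without both arrays of replicate 3, which leaves fewer arrays, the blocked log2 difference of ANKRD2 was 1.44 and its adjusted p over genes 0.185. After quantile normalization they were 1.41 and 0.0773. The size of the difference was therefore nearly the same, while the call was lost. In both settings limma called 0 genes, with 529 and 586 genes at an unadjusted p under 0.05, so none of the genes named below from the blocked fit passed there.

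CSRP3 was lower in PMM within each pair, on average by less than the spread between arrays. Its intensity was 634 units on LDM replicate 1, 614 on LDM replicate 2 and 153 on LDM replicate 3. It was 204 units on PMM replicate 1, 431 on PMM replicate 2 and 109 on PMM replicate 3. The muscles overlapped widely, and replicate 3 was the dimmest array in both. The normalized log2 signals were -0.10, -0.52 and -2.10 in LDM and -1.54, -0.88 and -2.63 in PMM. The means were -0.91 ± 1.06 (SD, n = 3) and -1.68 ± 0.89 (SD, n = 3), a log2 difference of -0.78 with a standard error of 0.61. The 95% confidence interval from -2.18 to 0.62 included 0, and the limma test was not passed (adjusted p = 0.99998 over probes). The pairs differed by -1.44, -0.36 and -0.53. With the block, the interval ran from -1.43 to -0.13 and lay below 0, but the adjusted p of CSRP3 was 0.374 over probes and 0.0655 over genes, so the limma test was not passed after adjustment. Its log2 difference became -1.37 when LDM replicate 3 was left out, and -0.30 when PMM replicate 3 was.

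Over all 25835 tested probes, the log2 differences ran from -0.55 at the 5th percentile to 0.63 at the 95th percentile. ANKRD1, at -3.01, held rank 12 from the lowest among the probes and rank 1 among the 2910 genes. ANKRD2 held rank 134 from the highest among the probes and rank 21 among the genes. CSRP3 held rank 544 from the lowest among the probes and rank 72 among the genes. These ranks describe the members and carry no test.

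**Figure D2:**
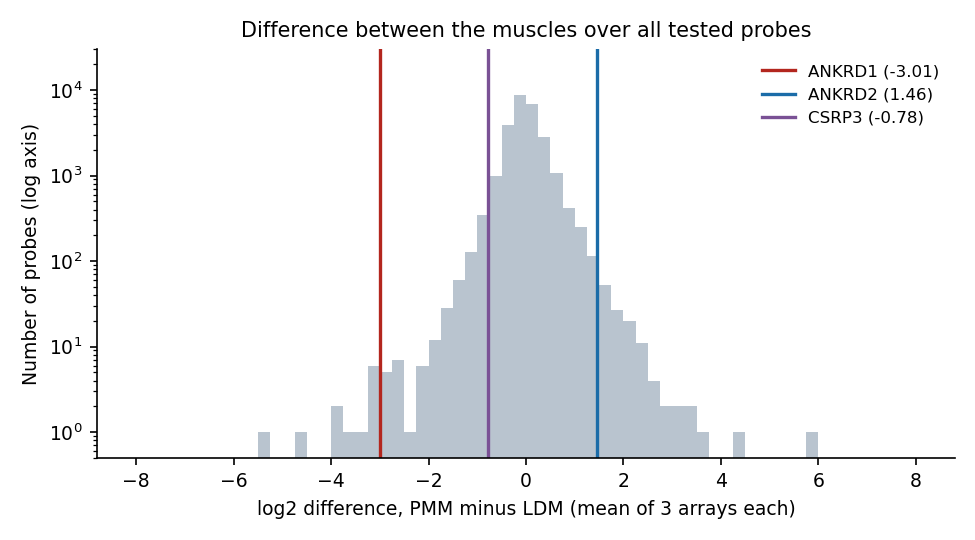
Number of tested probes (log axis) by log2 difference of PMM minus LDM, each the difference between means of 3 arrays, with vertical lines for ANKRD1 (-3.01), ANKRD2 (1.46) and CSRP3 (-0.78). Most probes lie near 0, between -0.55 and 0.63 for the 5th and 95th percentiles, and the lines of ANKRD1 and ANKRD2 stand on opposite sides outside that range.

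A ratio of 2 probes taken within an array does not depend on a single scaling factor for that array, but it can change with background correction or quantile normalization. The log2 ratio of ANKRD1 to ANKRD2 changed from LDM to PMM by -3.81 in replicate 1, -3.55 in replicate 2 and -6.05 in replicate 3. ANKRD1 thus lost ground to ANKRD2 by 22.1-fold on average, most in replicate 3. The group was chosen by the signal of ANKRD1, so any ratio that holds ANKRD1 carries that choice and only describes it. The log2 ratio of ANKRD2 to CSRP3 changed by 2.57, 2.12 and 2.03, a mean of 2.24 ± 0.29 (SD, n = 3). The ratio of ANKRD1 to CSRP3 changed by -1.24, -1.43 and -4.02. Across the 6 arrays, Pearson's r was -0.27 between ANKRD1 and ANKRD2, 0.71 between ANKRD1 and CSRP3 and 0.28 between ANKRD2 and CSRP3. These are descriptions over arrays that share their scaling and, in pairs, a scan day.

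Of the muscle ankyrin repeat family, ANKRD23 had no named probe. Of the family of CSRP3, CSRP1 had no named probe, and CSRP2, which is better known from smooth muscle, had a log2 difference of 0.32 with values higher in PMM in all 3 pairs (limma adjusted p = 0.99984, and 0.378 with the block). The median over all 2910 genes was -0.0042, with 1436 genes higher and 1474 lower in PMM. The lists that follow are read beside these numbers. The limma test without the block called 0 members of every list, as it did over all genes. The adjusted p-values given for single genes below are therefore those of the blocked fit over genes, and no list was tested as a whole. The planned main test was the one without the block, and the blocked fit was run as an alternative to it. With the block, 3.99% of all genes passed as higher in PMM and 2.23% as lower. None of the genes named below passed in the blocked fit after quantile normalization or without both arrays of replicate 3.

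The Z-disc and titin are the structures at which the proteins of the 3 genes bind. Of 35 genes listed, 18 were tested, with a median log2 difference of 0.24, and 15 of them were higher and 3 lower in PMM. MYOZ2, a calcineurin-binding Z-disc protein of slow fibres, was higher in PMM by 1.03 (adjusted p = 0.0136) and did not overlap between the muscles. ACTN2, the actin cross-linking alpha-actinin of the Z-disc, was higher by 0.84 (adjusted p = 0.0163), with all 3 pairs higher in PMM. Its muscles overlapped, with log2 signals of 3.68, 1.79 and 1.66 in LDM and 4.56, 2.75 and 2.34 in PMM. PDLIM3, an alpha-actinin-binding LIM protein, had a difference of -0.77 with all 3 pairs lower in PMM and did not pass (adjusted p = 0.0617). Thus 2 of 18 passed as higher and 0 as lower with the block, beside 3.99% and 2.23% of all genes. TTN itself, the giant spring of the sarcomere, had a difference of 0.15 (adjusted p = 0.780). The median of this list was 0.01 without LDM replicate 2 and -0.0001 without PMM replicate 1, but 0.55 without LDM replicate 1 and 0.40 without PMM replicate 3. It was 0.05 with normexp background correction.

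Load signals also reach the nucleus through SRF with its coactivators and through YAP with the TEAD factors, of which the YAP pathway regulates ANKRD1 in many cells. Of 19 genes of the SRF list, 8 were tested, with a median of 0.11, 6 higher and 2 lower. The median became 0.04 when LDM replicate 2 was dropped, 0.29 when LDM replicate 3 was and -0.08 with normexp background correction. ABRA, an actin-binding activator of SRF signalling, was the 1 gene of the list that passed with the block, beside 3.99% of all genes as higher. Its normalized log2 signals were 4.85, 3.74 and 4.38 in LDM and 5.89, 5.52 and 4.74 in PMM, which overlapped, and its difference was 1.06 (adjusted p = 0.0233). CNN1, a calponin of smooth muscle, had a difference of 0.52 and MYOCD, a coactivator of SRF, of 0.26, and neither passed (adjusted p = 0.142 and 0.503). SRF itself differed by -0.17 (adjusted p = 0.699).

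Of 24 genes of the YAP and TEAD list, 11 were tested, with a median of 0.22, 6 higher and 5 lower. With the block, 1 passed as higher, beside 3.99% of all genes. The median was 0.13 without PMM replicate 1 and 0.12 with the slide as a block. The gene that passed was CTGF, a matricellular protein and standard target of YAP. Its log2 signals were -0.05, 0.17 and 1.102 in LDM and 1.24, 1.69 and 1.87 in PMM. Every PMM array was above every LDM array, and the difference was 1.19 (adjusted p = 0.00526). TEAD4, one of the TEAD factors, and AMOT, an angiomotin that binds YAP, had differences of 0.41 and 0.39 and did not pass (adjusted p = 0.251 and 0.252). YAP1 had a difference of 0.22 (adjusted p = 0.580), and its coactivator relative WWTR1 of 0.26 (adjusted p = 0.493).

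Costameres link the Z-disc to the cell membrane and the matrix. Of 26 genes of this list, 9 were tested, with a median of -0.20, 1 higher and 8 lower in PMM. With the block, 0 passed, beside 3.99% of all genes as higher and 2.23% as lower. The median became 0.08 when LDM replicate 1 was dropped, -0.03 when PMM replicate 3 was and -0.31 when PMM replicate 1 was. ITGB1BP2, the muscle protein melusin that binds integrin, had a difference of 0.47 (adjusted p = 0.215). LAMA2, a laminin chain of the muscle basement membrane, and SGCD, a sarcoglycan, had differences of -0.39 and -0.31 (adjusted p = 0.314 and 0.456).

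Genes that respond to overload, injury or loss of the nerve were mixed. Of 25 genes, 16 were tested, with a median of -0.30, 6 higher and 10 lower. With the block, 0 passed as higher and 3 as lower, beside 3.99% and 2.23% of all genes. The median was -0.13 without PMM replicate 3 and -0.18 without PMM replicate 2. MT1A, a metallothionein that binds metals and is induced by stress, had log2 signals of 1.51, 0.06 and 0.89 in LDM and -1.97, -0.72 and -1.19 in PMM. These did not overlap, and the difference was -2.11 (adjusted p = 0.00636). FST, a follistatin that blocks myostatin, was lower by 0.88 on the log2 scale (adjusted p = 0.0146), with all 3 pairs lower in PMM. Its muscles overlapped, with log2 signals of 2.47, 4.25 and 4.10 in LDM and 1.71, 3.51 and 2.96 in PMM. MSTN, myostatin, which limits muscle mass, had a difference of -0.78 and did not pass (adjusted p = 0.0890). The third gene that passed was NCAM1, an adhesion protein found on denervated fibres, at -0.72 (adjusted p = 0.0482). It is not among the largest differences of the list and was named after its value was seen. NCAM1 was dim, with log2 signals of -3.17, -4.14 and -3.04 in LDM and -4.20, -4.51 and -3.81 in PMM, which overlapped. The part of background in these low values was not tested.

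**Figure D3:**
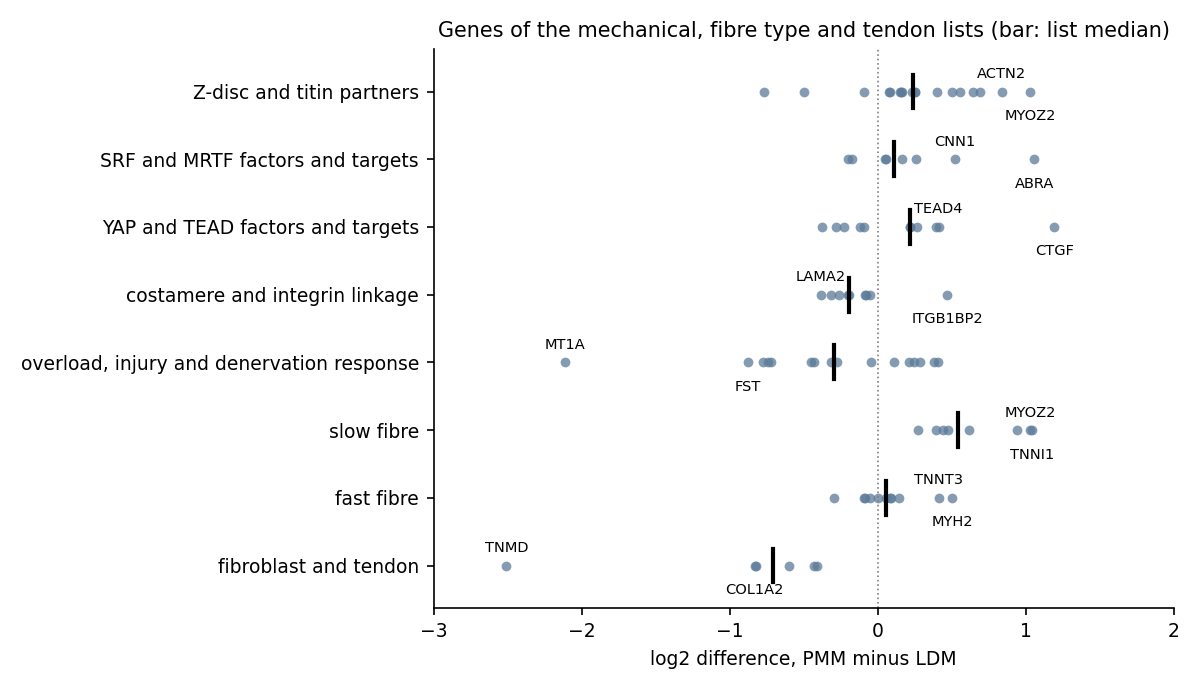
Log2 difference of PMM minus LDM for the tested genes of 8 lists, 1 point per gene, with a vertical bar at the median of the list and up to 2 genes of each list labelled. The slow fibre genes all lie above 0 and the fibroblast and tendon genes all below 0, while the lists of mechanical signalling spread over both sides.

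Fibre type was given beside these values because ANKRD2 and MYOZ2 are slow fibre proteins. Of 11 slow fibre genes, 8 were tested, all 8 were higher in PMM in all 3 pairs, and the median was 0.54, or 0.86 without LDM replicate 1. With the block, 3 of them passed as higher, beside 3.99% of all genes. MYOZ2 is among them and was already counted in the Z-disc list. TNNI1, the slow troponin I, was higher by 1.04 (adjusted p = 0.0150), MYOZ2 by 1.03 and TPM3, a slow tropomyosin, by 0.94 (adjusted p = 0.0163). The 11 tested fast fibre genes had a median of 0.06, 7 higher and 4 lower, and 0 passed. This median had no stable direction, with -0.20 without LDM replicate 2, -0.17 without PMM replicate 1, 0.18 without LDM replicate 1, 0.17 without PMM replicate 2, -0.05 with quantile normalization and -0.12 with normexp background correction. MYH2, the myosin of fast oxidative fibres, had a difference of 0.50 (adjusted p = 0.142), TNNT3, a fast troponin T, of 0.41 and CASQ1, the calsequestrin of fast fibres, of -0.29. The summed linear signal of the slow fibre genes, in multiples of the 75th percentile of the array, ranged from 1740 to 2393 in LDM and from 2490 to 3945 in PMM. The part of fibre composition in the ANKRD2 difference was not tested.

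Markers of tendon and connective tissue were lower in PMM, as ANKRD1 was. Of 11 markers of fibroblasts and tendon, 6 were tested, and all 6 were lower in PMM, with a median of -0.71, or -0.46 without LDM replicate 3. TNMD, tenomodulin, a membrane protein of tendon cells, had log2 signals of 0.01, -0.85 and -0.49 in LDM and -2.46, -2.14 and -4.25 in PMM. Its muscles did not overlap, and PMM replicate 3 was its lowest array as it was for ANKRD1. The difference of TNMD was -2.51 (adjusted p = 0.00142), and it was -1.86 without PMM replicate 3. TNMD was flagged as detected on every array, but on PMM replicate 3 it was dim, below the -2.63 of CSRP3 on that array. The part of background in the size of this difference was not tested. COL1A2 and COL1A1, the chains of type I collagen, were lower by 0.83 and 0.82 on the log2 scale (adjusted p = 0.0176 and 0.0183), though both overlapped between the muscles. COL1A1 was also dim, with log2 signals of -3.05, -2.59 and -1.32 in LDM and -3.74, -3.32 and -2.38 in PMM. Thus 3 of 6 passed as lower with the block, beside 2.23% of all genes. The summed signal of these markers ranged from 99.1 to 221 in LDM and from 71.7 to 154 in PMM, which overlapped. Most of this sum came from DCN on every array, at log2 signals of 6.54, 7.31 and 7.75 in LDM and 6.08, 6.99 and 7.24 in PMM. The overlap of the sum is thus mainly that of DCN, which had a difference of -0.43 and did not pass (adjusted p = 0.207). Of the 7 markers with a probe, FMOD was not detected well enough to be tested. The part of connective tissue in the ANKRD1 difference was not tested.

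The other marker lists were checked in the same way. Of 12 cardiac genes, 5 had a probe and 1 was tested, because NPPA, NPPB, GATA4 and RYR2 were not detected well enough. This was TNNI3, the cardiac troponin I, with log2 signals of 3.12, 2.40 and 2.65 in LDM and 5.14, 3.87 and 4.58 in PMM, which did not overlap. Its difference was 1.81 (adjusted p = 0.000432). Of 7 tested adipocyte markers, 2 were higher and 5 lower. Their median of -0.31 became -0.54 when LDM replicate 1 was dropped, 0.03 when LDM replicate 2 was and -0.17 when PMM replicate 1 was. Their summed signal, most of it from FABP4, ranged from 89.0 to 263 in LDM and from 95.8 to 272 in PMM. LPL, lipoprotein lipase, which muscle fibres also make, was higher by 1.12 (adjusted p = 0.0214), whereas PLIN1 and CIDEC, which coat fat droplets, were lower by 1.02 and 0.85 (adjusted p = 0.0243 and 0.0245). PLIN1 and CIDEC overlapped between the muscles. PLIN1 was flagged as detected on 3 LDM arrays but on only 2 PMM arrays, so it entered the test through LDM. Its pairs differed by -1.79, -0.63 and -0.64, the first with a log2 signal of -5.50 on PMM replicate 1. The call of PLIN1 is therefore not read as a result. The endothelial markers were higher on average in 6 of 6, and in all 3 pairs in 4 of 6. One of them, KDR, was flagged as detected on only 2 PMM arrays and entered the test through LDM. The median of 0.35 became 0.03 when LDM replicate 1 was dropped and 0.16 when PMM replicate 3 was. It became 0.73 when LDM replicate 3 was dropped and 0.55 when PMM replicate 1 was. The endothelial markers were led by ENG at 0.80 followed by CDH5 at 0.47 and TEK at 0.42. Their summed signals ranged from 54.9 to 169 in LDM and from 96.2 to 167 in PMM. The 3 tested smooth muscle genes were all higher in PMM, with SMTN at 0.60 (adjusted p = 0.100). The others, CNN1 and MYOCD, are also in the SRF list above, so the lists are not independent. The summed signal of the smooth muscle genes ranged from 37.8 to 52.9 in LDM and from 57.2 to 80.8 in PMM. The 4 tested leukocyte markers had a median of 0.14, which became -0.40 when LDM replicate 1 was dropped, -0.19 when PMM replicate 3 was, 0.70 when LDM replicate 3 was and 0.55 when PMM replicate 1 was, so that single arrays turned its direction. Among them were CD3E at 0.50, CD14 at 0.17 and CD163 at 0.11. The summed signals of the list, mostly from CD163, ranged from 4.10 to 17.8 in LDM and from 5.56 to 15.7 in PMM. None of the 6 listed erythrocyte genes had a named probe. None of the endothelial, smooth muscle and leukocyte markers passed with the block, beside 3.99% of all genes as higher and 2.23% as lower. The part of these cell types in the values of the 3 genes was not tested.

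The genes whose signals followed ANKRD1 most closely over the 6 arrays were sought among 2788 genes detected on all arrays. The highest Pearson's r was that of NUDT2 (0.991), a nucleotide hydrolase, followed by PRDX5 (0.982), a peroxiredoxin, TNMD (0.982), SIRT1 (0.981), a deacetylase, and UFC1 (0.975), an enzyme of protein modification by UFM1. Their patterns were alike but their sizes were not. The log2 difference of SIRT1 was -0.19, that of NUDT2 -0.29, that of UFC1 -0.32 and that of PRDX5 -0.36, compared with -2.51 for TNMD and -3.01 for ANKRD1. All of them shared the low value on PMM replicate 3. These correlations come from 6 points that fall into 2 muscles, and they are given as a description.

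**Figure D4:**
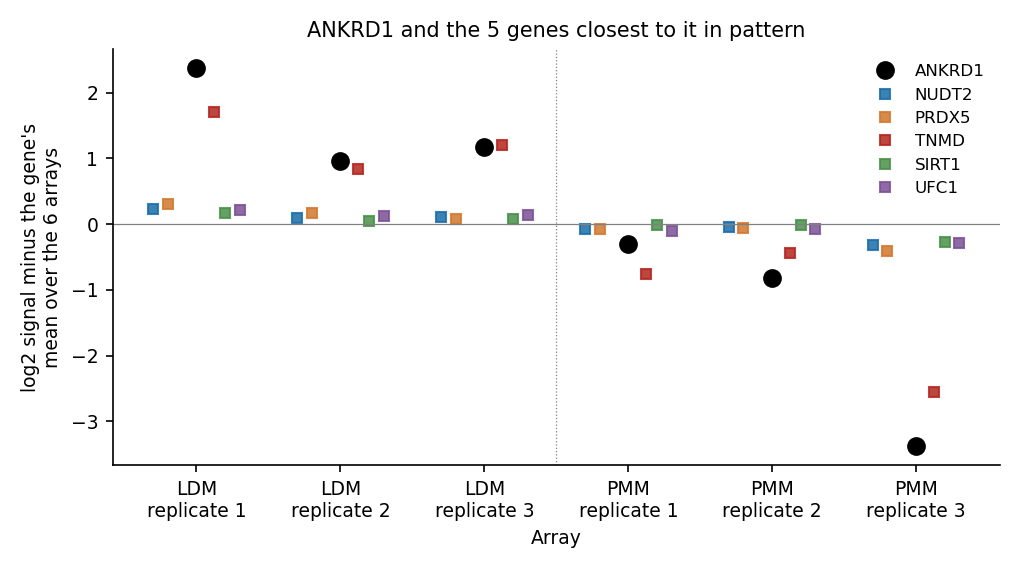
Log2 signal on each array minus the mean of the gene over the 6 arrays, for ANKRD1 (black circles) and the 5 genes with the highest Pearson's r with it (coloured squares). TNMD follows ANKRD1 over most of its range, with PMM replicate 3 lowest for both, whereas NUDT2, PRDX5, SIRT1 and UFC1 stay close to 0.

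For ANKRD2 the 3 closest genes were NDUFB6 (r = 0.984), OXCT1 (r = 0.978) and NDUFA8 (r = 0.976). NDUFB6 and NDUFA8 encode subunits of respiratory complex I, and OXCT1 an enzyme that uses ketone bodies. Each was higher in PMM in all 3 pairs, with log2 differences of 0.55, 0.59 and 0.54, and none passed with the block (adjusted p = 0.104, 0.0807 and 0.116). For CSRP3 they were ARID4A (r = 0.983), a chromatin protein, SBNO1 (r = 0.979), a helicase-related protein, and CUTC (r = 0.972), a copper-binding protein. Their log2 differences were -0.23, -0.32 and -0.29, and replicate 3 was the lowest array of each muscle for all 3 genes, as it was for CSRP3 itself.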

How the data were processed

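Cy3-labelled total RNA of LDM and PMM was measured on 6 one-colour Agilent pig arrays. The authors deposited linear intensities of spots. Agilent Feature Extraction 10.5.1.1 had removed local background and spatial trends from them. It also combines scans at 2 gains and flags outlier, saturated and well-above-background spots. No normalization between arrays had been applied, and the paper's text names no normalization or test beyond the MultiExperiment Viewer. Control and outlier spots were left out, repeated spots were averaged per probe, and the log2 intensity was set relative to the array's 75th percentile. Probes flagged as detected on all 3 arrays of LDM or of PMM, with at least 2 values per muscle, were tested, which left 25835. Of 43603 probes, 2907 were named by RefSeq accession, 1350 by gene number, 896 by the name in the files and 28 by description, through a gene table of Sscrofa11.1 used for names only, and 38422 stayed unnamed. The brightest tested probe stood for a gene. Coordinates and the genome mapping of the probes were not used here.

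PMM was compared with LDM with the functions lmFit and eBayes of limma 3.58.1 (R 4.3.3). Tests were two-sided, and p-values adjusted after Benjamini and Hochberg were called under 0.05. The code was tested on simulated data. Deviations of same-numbered arrays from the means of their muscles correlated between the muscles at 0.62, 0.70 and 0.56 for replicates 1, 2 and 3, which was read as a pairing by number, and values from a blocked fit stand beside a result whose call they change. Alternatives were quantile and median scaling, the percentile over probes detected everywhere, normexp (offset 50), no detection filter, kept outliers, slide as a block, the value table of the series, the mean over probes of a gene and leaving out each array. The blocked fits without both arrays of a number and with quantile normalization were added after seeing the data. Genes to be named were the 3 members, up to 3 genes with the largest absolute difference in each of 16 lists and the genes closest in pattern (5 for ANKRD1, 3 for each of the other two). TTN, SRF, YAP1, WWTR1, CSRP2 and NCAM1 were named besides. The members and lists were chosen with earlier results of these data known.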

Additional observations from a re-analysis of the deposited data

How the results depend on the processing

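ANKRD1 stayed lower in PMM, and ANKRD2 higher, under every alternative run. The log2 difference of ANKRD1 ranged from -3.62 to -2.23 over the alternatives that kept all arrays or dropped a pair, and from -3.60 to -2.06 when 1 array was left out. That of ANKRD2 ranged from 1.29 to 1.63, and from 0.98 to 1.93 when 1 array was left out (limma adjusted p 0.872 to 0.999997). That of CSRP3 ranged from -0.99 to -0.40 and from -1.37 to -0.30, and it never passed over probes. ANKRD2 passed over probes with the slide as a block (1.59, adjusted p = 0.0166) and with the replicate block without both arrays of replicate 1 (1.63, adjusted p = 0.00781). The cause was not tested.

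The number of probes called, 0 in the limma test as reported, was 7 with quantile normalization, 9 with median centring, 1 with normexp, 16 with the replicate block, 322 with a slide block and 226 with the replicate block without both arrays of replicate 1, and 0 to 1 when 1 array was left out. The number of genes called, 0 as reported, was 181 with the replicate block, 179 with a slide block, 155 and 136 with the replicate block without both arrays of replicate 1 and of replicate 2, and 0 to 0 when 1 array was left out. It was 0 with the replicate block without both arrays of replicate 3 and with the replicate block after quantile normalization. The cause was not tested. Precision was limited by having 3 arrays per muscle.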
